A study of Mus musculus with 24 samples.

Results

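The intervals of open chromatin assigned to 5 genes that have been described as contacts of the Firre locus in the nucleus were followed in mouse embryonic stem cells. Firre is a long noncoding RNA gene on the X chromosome, and the 5 genes, Slc25a12, Ypel4, Eef1a1, Atf4 and Ppp1r10, lie on chromosomes 2, 2, 9, 15 and 17. A consensus interval was taken as a member if the authors' annotation gave 1 of these genes as that of its nearest transcription start site (TSS), whether it lay at a promoter or far from it. This rule used no measured level and found 16 of 145143 intervals. Of these, 12 were assigned to Slc25a12, 1 to Ypel4 and 3 to Eef1a1, and 0 intervals of the tables used here bore the name Atf4 or Ppp1r10. The accessibility of Atf4 itself was not analysed here.

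The libraries were ATAC-seq libraries, in which a transposase inserts adapters into accessible DNA, made from 25000 cells each. The KO Firre line was a Firre knockout with a doxycycline-inducible Firre transgene, and its control was the KO control, labelled as a Firre knockout with no transgene named. The WT Firre line had the inducible transgene in a wild type background, and the WT control was labelled as wild type. Cells of all 4 lines received 1 ng/µL doxycycline, the control lines too, and were taken at 0, 30, 60, 90, 120 and 150 min with 1 library per line and time. There were 6 libraries of the KO Firre line, 6 of the KO control, 5 of the WT Firre line, whose 60 min library was not analysed here, and 6 of the WT control. The stated aim was to follow accessibility after Firre induction against matched lines that control for the drug. The labels do not say what the control lines carry in place of the transgene. They give neither the number of clones behind a line nor the promoter or allele details of the transgene and the knockout, so genotype and clone cannot be told apart.

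The libraries held 5725518 to 14977148 counts in intervals (median 7664147), and 0 of 253 pairs of libraries held identical counts. On the first principal component, which held 16.7% of the variance, the KO control libraries of 30 and 90 min had the 2 highest scores, 65.4 and 86.4, against -45.7 to 47.6 for the others. The 19 intervals of the Firre gene outside exons summed to 5.64 ± 0.53 CPM (counts scaled to a common library size) in the KO Firre line, 3.04 ± 1.00 CPM in the KO control, 103 ± 9.87 CPM in the WT Firre line and 90.6 ± 7.08 CPM in the WT control (SD, n = 6, 6, 5 and 6). The 1 exonic Firre interval, which the transgene can also fill, held 17.7 ± 3.84, 7.27 ± 2.29, 25.7 ± 9.00 and 2.07 ± 0.48 CPM in the same order of lines. At that interval the KO control, from 4.18 to 9.60 CPM, lay above the WT control, from 1.36 to 2.72 CPM, without overlap, although neither label names a transgene, and the source of these reads was not tested. Promoter intervals were found for 10 of 10 naive stem cell markers, with line medians of 33.9 to 42.5 CPM, and for 7 of 10 fibroblast markers, with medians of 10.4 to 12.0 CPM. Col1a2, Col3a1 and Prrx1 were the fibroblast markers with no such interval.

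Firre RNA accumulates in the nucleus around its own locus, binds the nuclear matrix factor hnRNPU through repeated sequence elements, and has been described as bringing stretches of other chromosomes close to that locus. The contact genes share no known pathway. Slc25a12 encodes a calcium-regulated carrier of the mitochondrial inner membrane that exchanges aspartate for glutamate, Ypel4 a small protein of the yippee-like family, and Eef1a1 the elongation factor that brings aminoacyl-tRNA to the ribosome. Atf4 encodes the transcription factor of the integrated stress response, and Ppp1r10 encodes PNUTS, a nuclear regulatory subunit of protein phosphatase 1.

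The promoters of the 2 genes whose annotated start fell inside a member interval are printed because the start intervals carry most of the comparisons that follow. They are RefSeq sequences of assembly GRCm38.p6 upstream of the gene, on the minus strand, from chr2:71367782-71368005 for Slc25a12 and chr9:78481725-78481974 for Eef1a1. Capitals mark matches to 6 motifs searched on both strands, the TATA box (TATAAA), the GC box (GGGCGG), the CCAAT box (CCAAT), an ETS site (CCGGAAG), the CRE (TGACGTCA) and the E box (CACGTG).
Slc25a12: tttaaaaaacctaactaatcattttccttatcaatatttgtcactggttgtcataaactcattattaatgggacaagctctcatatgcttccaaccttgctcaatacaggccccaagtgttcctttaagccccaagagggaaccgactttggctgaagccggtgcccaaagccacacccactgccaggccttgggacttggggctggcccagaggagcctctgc
Eef1a1: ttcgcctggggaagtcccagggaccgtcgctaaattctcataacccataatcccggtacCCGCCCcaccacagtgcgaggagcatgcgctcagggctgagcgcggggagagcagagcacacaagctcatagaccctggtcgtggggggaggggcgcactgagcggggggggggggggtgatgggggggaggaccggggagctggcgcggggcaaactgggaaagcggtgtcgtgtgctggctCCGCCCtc

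The 250 bases of Eef1a1 held 68.0% G and C, 18 CpG dinucleotides and 2 GC boxes, read as CCGCCC on the other strand. The 224 bases of Slc25a12 held 48.2% G and C, 2 CpG dinucleotides and 0 matches to the 6 motifs. They are the part of the RefSeq window outside the gene span, and the full window of 250 bases held 49.6% G and C and 6 CpG dinucleotides. Over 32851 RefSeq promoter windows of 250 bases the median was 52.4% G and C and 6 CpG dinucleotides. A GC box was found in 32.7% of those windows, a CCAAT box in 33.8%, a TATA box in 12.4%, an ETS site in 6.9%, an E box in 6.0% and a CRE in 1.5%. These matches describe the letters of the windows alone.

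The mean levels of the member intervals ran from 0.892 to 59.7 CPM and their widths from 208 to 4092 bp. Per length the range was 3.91 to 27.8 CPM per kb with a median of 10.6 CPM per kb, and 14 of the 16 were denser than the median interval of the whole set. By the authors' annotation 9 were intronic, 3 lay at an annotated promoter, 3 were intergenic and 1 was exonic. The densest member was the Eef1a1 start interval, at 27.8 CPM per kb above 98.8% of all intervals. The Slc25a12 start interval had 13.0 CPM per kb, above 91.8% of all intervals, and the Ypel4 interval had 9.92 CPM per kb, above 86.4%.

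Slc25a12 was covered by a chain of 12 intervals reaching from an intron of the next gene upstream to 18748 bp downstream of its TSS. The interval at the gene start, chr2:71366751-71368108, overlapped the RefSeq start and was annotated as intron 1 of 16. The highest level was at chr2:71346740-71350831, a 4092 bp interval annotated as a promoter of the same gene although it lies 18748 bp from the TSS, with 45.8 CPM. The densest was chr2:71388802-71390178, with 18.8 CPM per kb, which lies in intron 1 of 10 of the neighbouring gene Hat1, a histone acetyltransferase gene, and not in Slc25a12. Density fell to 3.91 CPM per kb at chr2:71358853-71359080, the 1 member that did not pass the filter on low counts and was not tested. The other 15 members passed it.

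**Figure D1:**
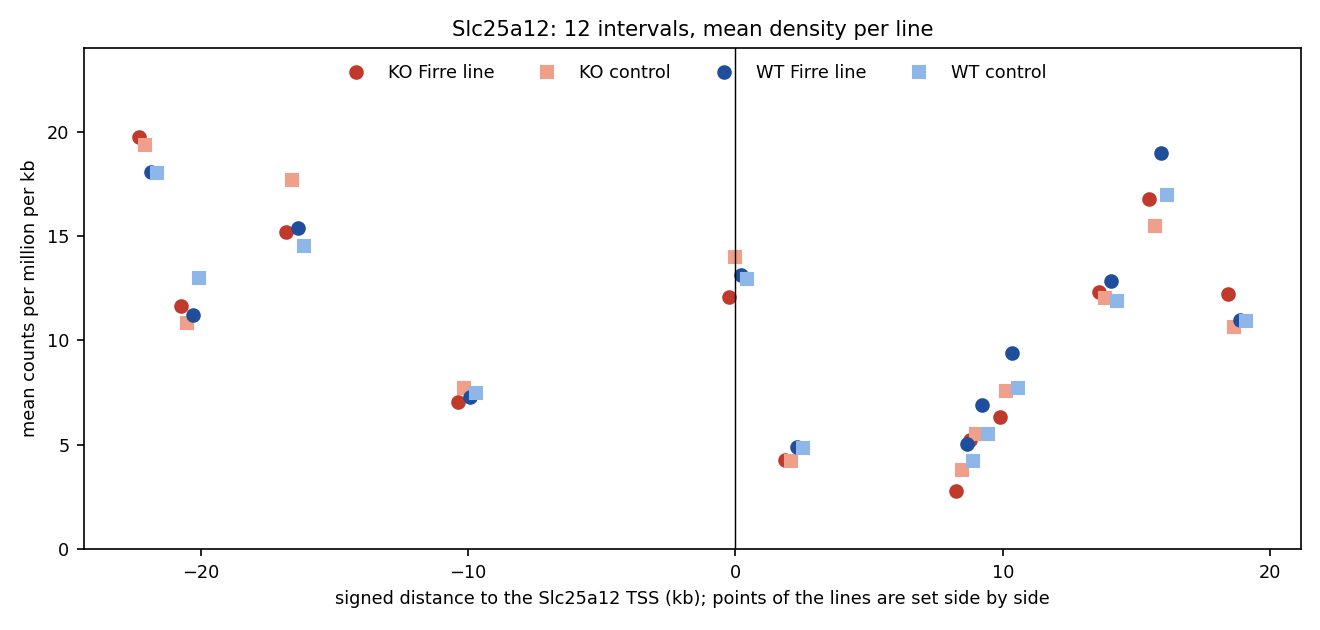
Mean density of each of the 12 Slc25a12 intervals (CPM per kb, vertical) against the signed distance to the TSS (kb, horizontal), with 1 point per line and interval. The points of the 4 lines lie close together at each interval, and density differs far more between intervals, 3.91 to 18.8 CPM per kb over all libraries, than between lines.

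Sums were taken over the intervals assigned to a gene by nearest TSS. For Slc25a12 they include the interval in Hat1 and leave out intervals inside the gene that bear another name. Over the assigned intervals Slc25a12 summed to 163 ± 13.9 CPM in the KO Firre line and 162 ± 15.0 CPM in the KO control (SD, n = 6 each). It summed to 163 ± 6.36 CPM in the WT Firre line (n = 5) and 159 ± 6.14 CPM in the WT control (n = 6). Eef1a1 summed to 75.3 ± 4.18 CPM in the KO Firre line and 78.1 ± 6.39 CPM in the KO control. In the wild type background Eef1a1 summed to 75.0 ± 9.69 CPM in the WT Firre line and 66.0 ± 1.26 CPM in the WT control. Among the Eef1a1 sums the spread was narrowest in the WT control and widest in the WT Firre line.

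The KO Firre line was compared with the KO control over all times, 0 min included, and both lines of the pair received doxycycline. The result is thus a difference between lines and not a change after induction. Of 15 tested members, 0 were called at an adjusted p of 0.05 (edgeR quasi-likelihood test, Benjamini-Hochberg over 129515 intervals), where 0.913% of all tested intervals were called. Unadjusted p was under 0.05 for 3 members and for 12.3% of all tested intervals, and DESeq2 and limma-voom also called 0. The median log2 difference of the members was -0.03, against 0.00 over all tested intervals, and the 95% interval of each of the 15 lay within 1 log2 unit, or 2-fold, of no difference. The levels of the KO Firre line and the KO control overlapped at all 16 members, but overlap was not counted over all intervals, so this does not set the members apart.

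The Slc25a12 start interval held 15.5, 16.0, 19.2, 18.6, 15.0 and 14.1 CPM in the KO Firre line at 0, 30, 60, 90, 120 and 150 min, against 19.6, 18.9, 17.4, 22.2, 20.4 and 15.5 CPM in the KO control. The KO Firre line was lower at 5 of 6 times, 0 min among them, and higher at 60 min. The log2 difference was -0.21 (SE 0.09, 95% interval -0.39 to -0.02), with an edgeR adjusted p of 0.328.

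At the large downstream interval chr2:71346740-71350831 the KO Firre line held 39.3, 59.0, 52.4, 51.3, 48.8 and 49.0 CPM, against 41.5, 46.1, 45.2, 46.8, 41.2 and 40.9 CPM in the KO control. Here the KO Firre line was lower at 0 min and higher at the 5 later times. The log2 difference was 0.20 (SE 0.08, 95% interval 0.04 to 0.36) with an edgeR adjusted p of 0.269. With loess offsets, which let the scaling depend on abundance, it was called at 0.21 with an adjusted p of 0.0249. Its mean Firre response from 30 to 150 min, which was taken over both backgrounds, was 0.10 (SE 0.16), with an edgeR adjusted p of 1. In the KO background alone the linear change per hour of the Firre line minus its control was 0.06 (SE 0.10) on the log2 scale.

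The Eef1a1 start interval, chr9:78480403-78482553, held 54.2, 67.1, 64.2, 61.2, 62.9 and 60.3 CPM in the KO Firre line and 55.3, 67.0, 55.3, 69.9, 69.6 and 60.8 CPM in the KO control. Both lines covered nearly the same range, with their lowest value at 0 min, which the KO control had again at 60 min. The log2 difference was -0.03 (SE 0.08, 95% interval -0.19 to 0.14). The interval chr9:78487654-78489407 lies in an intron of Eef1a1 by the authors' annotation and upstream of the RefSeq gene, whose span ends at 78481724. It was lower in the KO Firre line at 6 of 6 times, with 11.5 to 13.0 CPM in the KO Firre line and 12.2 to 15.8 CPM in the KO control. Its log2 difference was -0.19 (SE 0.10) with an edgeR adjusted p of 0.407.

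The Ypel4 interval, chr2:84736546-84736880, lay in exon 2 of 5, 2655 bp from the TSS, while 0 intervals covered the RefSeq start of the gene, and held few reads, 15 to 46 counts per library. It had 2.45, 2.82, 3.17, 3.23, 2.55 and 2.62 CPM in the KO Firre line and 2.97, 2.78, 3.98, 3.67, 2.89 and 3.66 CPM in the KO control. The KO Firre line was lower at 5 of 6 times. The log2 difference was -0.25 (SE 0.18, 95% interval -0.61 to 0.11) with an edgeR adjusted p of 0.632.

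**Figure D2:**
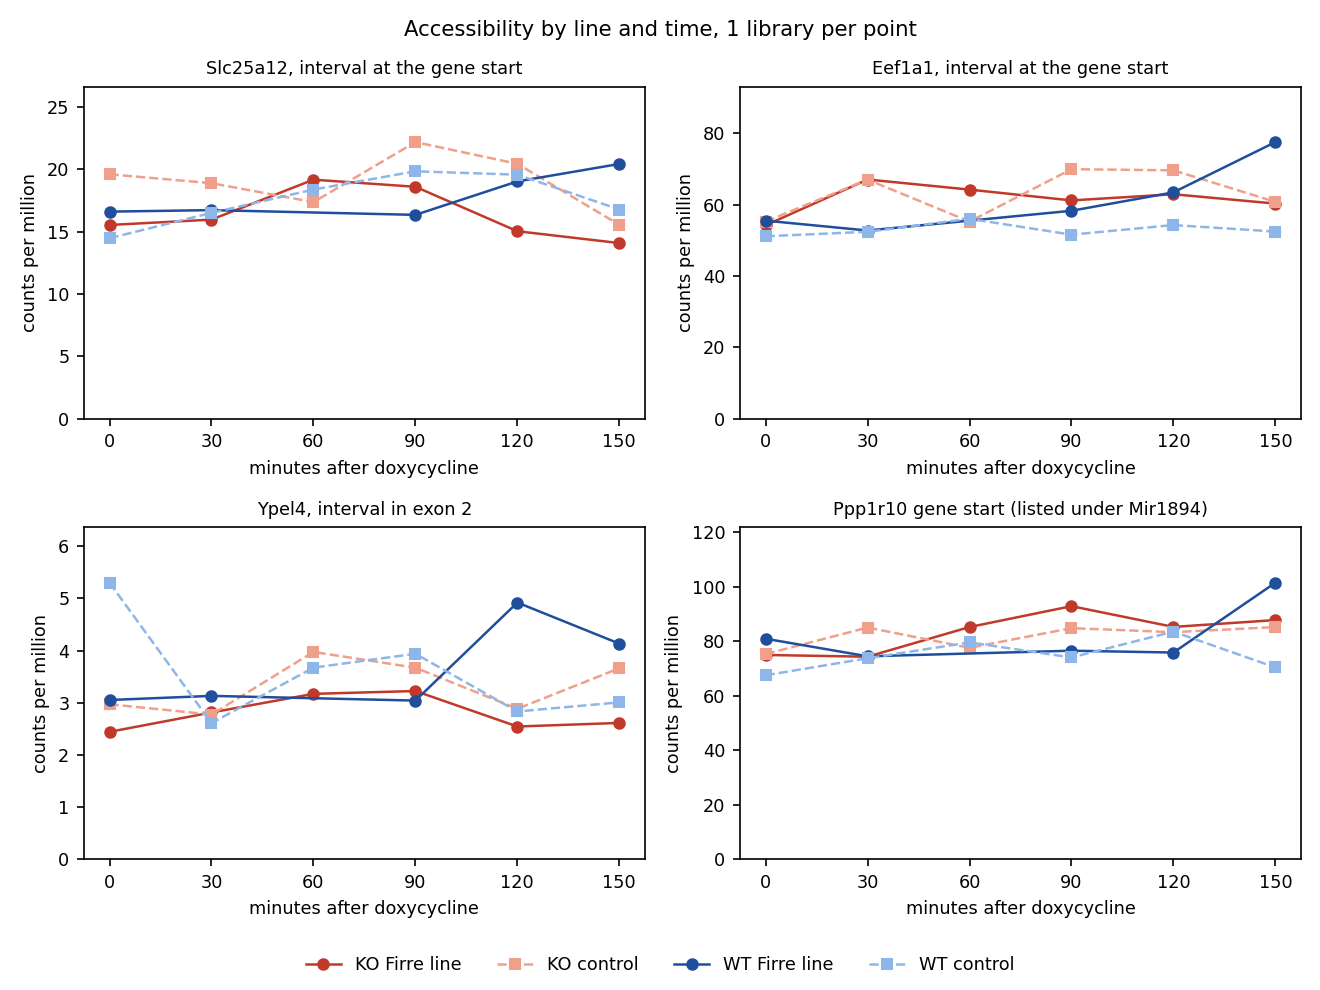
CPM (vertical, from 0) by minutes after doxycycline (horizontal) in each library of the KO Firre line, KO control, WT Firre line and WT control, for the Slc25a12 and Eef1a1 start intervals, the Ypel4 interval and the interval at the Ppp1r10 start. Each point is 1 library, so there is no error bar, and the lines cross in every panel. The WT Firre line at 150 min is the highest point of the Eef1a1 panel, at 77.5 CPM, and of the Ppp1r10 panel, at 101 CPM.

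In the wild type background, where the transgene adds to endogenous Firre, 0 of 15 members were called (edgeR, adjusted p of 0.05), against 0.0818% of all tested intervals. Unadjusted p was under 0.05 for 1 member and for 7.55% of all tested intervals, and DESeq2 and limma-voom called 0. The members' median log2 difference was 0.06, against 0.00 over all tested intervals. The 2 groups overlapped at all 16 members, again with no count over all intervals, and each of the 15 confidence intervals lay within 2-fold.

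The member with the unadjusted p under 0.05 was the Eef1a1 start interval. It held 55.5, 52.8, 58.3, 63.5 and 77.5 CPM in the WT Firre line at 0, 30, 90, 120 and 150 min, against 51.2, 52.4, 56.0, 51.6, 54.3 and 52.5 CPM in the WT control at the 6 times. The WT Firre line was higher at all 5 shared times. The log2 difference was 0.21 (SE 0.09, 95% interval 0.03 to 0.38) with an edgeR adjusted p of 0.571. The share of counts in promoter intervals moved with it, at 40.8 ± 2.06% in the WT Firre line and 39.0 ± 0.59% in the WT control (SD, n = 5 and 6), and was highest, 44.3%, in the WT Firre line at 150 min. With that share as a covariate the log2 difference was 0.005, with an edgeR adjusted p of 0.997. The share comes from the same counts, and the interval's level correlated with it at r of 0.91 over the 23 libraries. This fit therefore cannot tell a change at the interval from a change in promoter share.

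The Slc25a12 start interval held 16.6, 16.7, 16.3, 19.0 and 20.4 CPM in the WT Firre line and 14.5, 16.5, 18.4, 19.8, 19.6 and 16.8 CPM in the WT control. Its log2 difference was 0.01 (SE 0.10, 95% interval -0.19 to 0.20), and the ranges lay over each other. The Ypel4 interval held 3.06, 3.13, 3.04, 4.92 and 4.14 CPM in the WT Firre line and 5.30, 2.61, 3.68, 3.94, 2.84 and 3.01 CPM in the WT control. The highest value of Ypel4 was thus a WT control library at 0 min, and the log2 difference was 0.03 (SE 0.18). The remaining Slc25a12 intervals had differences of -0.21 to 0.28.

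The transgene contrast was set against itself between backgrounds by testing the KO pair's difference minus that of the WT pair. Of 15 members 0 were called (edgeR, adjusted p of 0.05), where 0.266% of all tested intervals were called, and an unadjusted p under 0.05 was found at 0 members and at 10.6% of all tested intervals. DESeq2 and limma-voom called 0, and 13 of the 15 confidence intervals lay within 2-fold. Estimates ran from -0.54 to 0.68, with a median of -0.07 against 0.00 over all tested intervals. The Eef1a1 start interval had -0.23 (SE 0.12), and the interval at chr9:78487654-78489407 had -0.28 (SE 0.14). The remaining Eef1a1 interval, chr9:78490003-78490266, went the other way and had the highest estimate, 0.68 (SE 0.39). It held few reads, 6 to 16 counts per library. Its log2 difference was 0.33 (SE 0.26) in the KO pair and -0.35 (SE 0.29) in the WT pair.

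**Figure D3:**
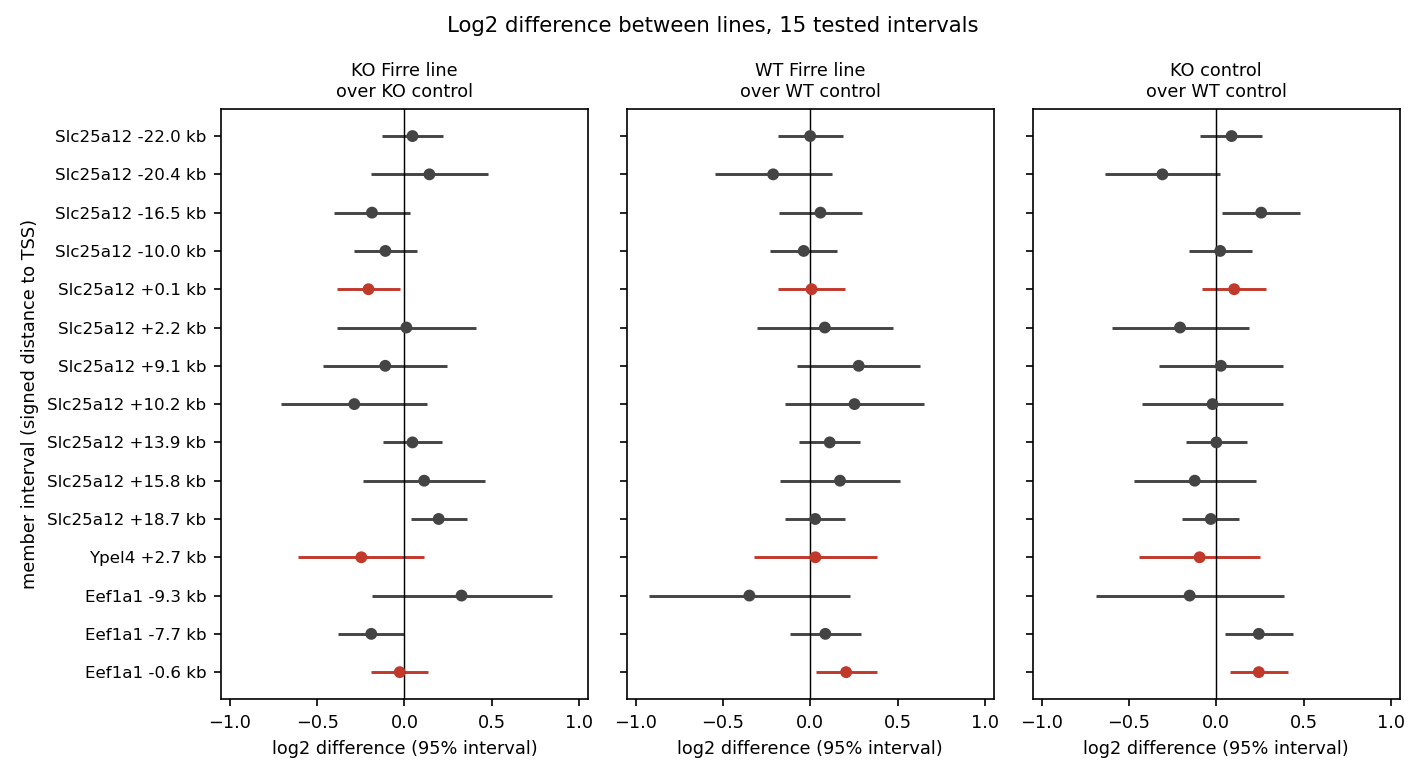
Log2 differences with 95% intervals (horizontal) for the 15 tested members (rows, labelled by gene and signed distance to the TSS) in the 3 comparisons of lines, with the interval nearest to each gene's TSS in red. Most of the 95% intervals include 0, and of the 15 in each panel those of 3, 1 and 3 members exclude it before adjustment.

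The KO control, labelled as a Firre knockout, was compared with the WT control, labelled as wild type. This was the comparison with most calls in the whole set, 7.97% of tested intervals, and 0 of 15 members were called (edgeR, adjusted p of 0.05). Unadjusted p was under 0.05 for 3 members and for 22.2% of all tested intervals, and DESeq2 and limma-voom each called 1, the Eef1a1 start interval. The members' median log2 difference was 0.00, against -0.02 over all tested intervals. The groups overlapped at all 16 members, and overlap was not counted over all intervals. Each 95% interval lay within 2-fold.

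The Eef1a1 start interval was the member nearest to the threshold. It averaged 63.0 ± 6.82 CPM in the KO control, from 55.3 to 69.9 CPM, and 53.0 ± 1.84 CPM in the WT control, from 51.2 to 56.0 CPM (SD, n = 6 each). The KO control was higher at 5 of 6 times, and the exception was 60 min, with 55.3 CPM in the KO control and 56.0 CPM in the WT control. The log2 difference was 0.24 (SE 0.08, 95% interval 0.08 to 0.41) with an edgeR adjusted p of 0.0519. DESeq2 gave 0.25 with an adjusted p of 0.034, and limma-voom gave 0.24 with an adjusted p of 0.0314.

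Single libraries decided that call as well. In edgeR the interval was called when the KO control was fitted without its 60 min library (0.29, adjusted p 0.0222) or its 150 min library (0.28, adjusted p 0.00972). It was also called without the WT control library of 60 min (0.27, adjusted p 0.0483), and without the WT Firre line library of 30 min (0.25, adjusted p 0.0416) or of 150 min (0.25, adjusted p 0.0108), which are no part of this contrast but of the same fit. Without the KO control libraries of 30 and 90 min the difference was 0.16, with an adjusted p of 0.398. The KO control's 150 min library also decided 2 other members, chr2:71383650-71384362 upstream of Slc25a12 and chr9:78487654-78489407, assigned to Eef1a1. Without it they were called at 0.40 (adjusted p 0.00505) and 0.28 (adjusted p 0.0452), against 0.26 (adjusted p 0.146) and 0.24 (adjusted p 0.107) with all libraries.

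The share of counts in promoter intervals was 42.1 ± 0.96% in the KO control, from 41.0% to 43.1%, and 39.0 ± 0.59% in the WT control, from 38.1% to 39.7% (SD, n = 6 each). The lines did not overlap in that share, so it and the genotype cannot be told apart. With the share as a covariate the Eef1a1 start interval differed by -0.09, with an edgeR adjusted p of 0.828, and with loess offsets by -0.07, with an adjusted p of 0.46. The naive stem cell markers were also higher in level, with promoter levels summed over 10 genes of 431 CPM in the KO control and 376 CPM in the WT control. The 7 fibroblast markers summed to 75.5 CPM in the KO control and 73.5 CPM in the WT control, and 7 of 10 germ layer markers with such an interval to 164 CPM in the KO control and 153 CPM in the WT control. The part of these markers in the result was not tested.

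The Slc25a12 start interval differed between the control lines by 0.10 (SE 0.09, 95% interval -0.08 to 0.28), and the Ypel4 interval by -0.10 (SE 0.17). At the large downstream Slc25a12 interval the log2 difference was -0.03 (SE 0.08) with an edgeR adjusted p of 0.868. With loess offsets the same interval was called lower in the KO control, at -0.30 with an adjusted p of 9.61e-05, and the contrast between backgrounds was called there at 0.32 with an adjusted p of 0.0316.

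The change after induction was measured as the mean of 30 to 150 min against 0 min, Firre lines minus control lines, with the 2 backgrounds as replicates. Of 15 members 0 were called (edgeR, adjusted p of 0.05), and 0% of all tested intervals were called. An unadjusted p under 0.05 was found at 0 members and at 3.77% of all tested intervals, and neither DESeq2 nor limma-voom called a member. The members' median was 0.02 on the log2 scale, against 0.00 over all tested intervals. This comparison was less precise, and the 95% intervals of 11 of the 15 members lay within 2-fold.

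The Slc25a12 start interval had a mean response of 0.02 (SE 0.18, 95% interval -0.35 to 0.38) and the Eef1a1 start interval one of 0.06 (SE 0.17, 95% interval -0.27 to 0.39). At the Ypel4 interval the response was 0.60 (SE 0.34, 95% interval -0.08 to 1.28), with an unadjusted p of 0.0853 and an edgeR adjusted p of 1. In the per-library values of Ypel4 the WT control library of 0 min, at 5.30 CPM, was the highest of that line, which later held 2.61 to 3.94 CPM, and it enters this response as a baseline. Across the other settings, leaving out single libraries included, the Ypel4 response ran from 0.09, without the WT control library of 0 min, to 1.00, without the KO control library of 0 min.

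When all transgene by time terms were tested at once, 0 of 15 members and 0.000772% of tested intervals were called (edgeR, adjusted p of 0.05). Unadjusted p was under 0.05 for 1 member, chr2:71383650-71384362 upstream of Slc25a12, at 0.00292, and for 4.42% of all tested intervals, and DESeq2 and limma-voom called 0. The member held 9.49, 11.5, 10.3, 13.8, 9.04 and 10.8 CPM in the KO Firre line and 11.5, 16.7, 11.0, 13.9, 15.0 and 7.52 CPM in the KO control. It held 11.0, 8.88, 11.6, 10.8 and 12.5 CPM in the WT Firre line and 12.2, 12.0, 9.19, 9.61, 10.2 and 9.03 CPM in the WT control. The KO control had both the highest value, at 30 min, and the lowest, at 150 min.

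Doxycycline alone was followed in the control lines, 30 to 150 min against 0 min. Of 15 members 0 were called (edgeR, adjusted p of 0.05), as were 0% of all tested intervals, with 0 members and 5.26% of all tested intervals at an unadjusted p under 0.05 and 0 members called by DESeq2 or limma-voom. The control response was 0.11 (SE 0.13) at the Slc25a12 start interval, 0.14 (SE 0.12) at the Eef1a1 start interval and -0.32 (SE 0.23) at the Ypel4 interval. These values turned on the 0 min libraries and the scaling. Without the WT control library of 0 min the Ypel4 response was 0.18 and the Slc25a12 response -0.07, and without the KO control library of 0 min they were -0.73 and 0.33. The Eef1a1 response was -0.005 with loess offsets and 0.003 with promoter share as a covariate, which gave -0.03 for Slc25a12. Over all tested intervals its median was 0.00.

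Linear slopes per hour of a Firre line minus its control were fitted within each background. In the KO background 0 of 15 members were called (edgeR, adjusted p of 0.05), as were 0% of all tested intervals, and an unadjusted p under 0.05 was found at 0 members and at 5.75% of all tested intervals. In the WT background 0 of 15 were called, again with 0% of all tested intervals, and an unadjusted p under 0.05 was found at 4 members and at 3.81% of all tested intervals. DESeq2 and limma-voom called 0 in both. The 4 were the Ypel4 interval, at 0.45 per hour (SE 0.21), and 3 Slc25a12 intervals, of which 2 had negative slopes. The edgeR adjusted p was 1 for each of them, and without the WT control library of 0 min the Ypel4 slope was 0.18 per hour. The slope of the Slc25a12 start interval was -0.005 per hour in the KO background and 0.003 per hour in the WT background (SE 0.11 each), and those of the Eef1a1 start interval were -0.05 per hour (SE 0.10) in the KO background and 0.18 per hour (SE 0.10) in the WT background.

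**Figure D4:**
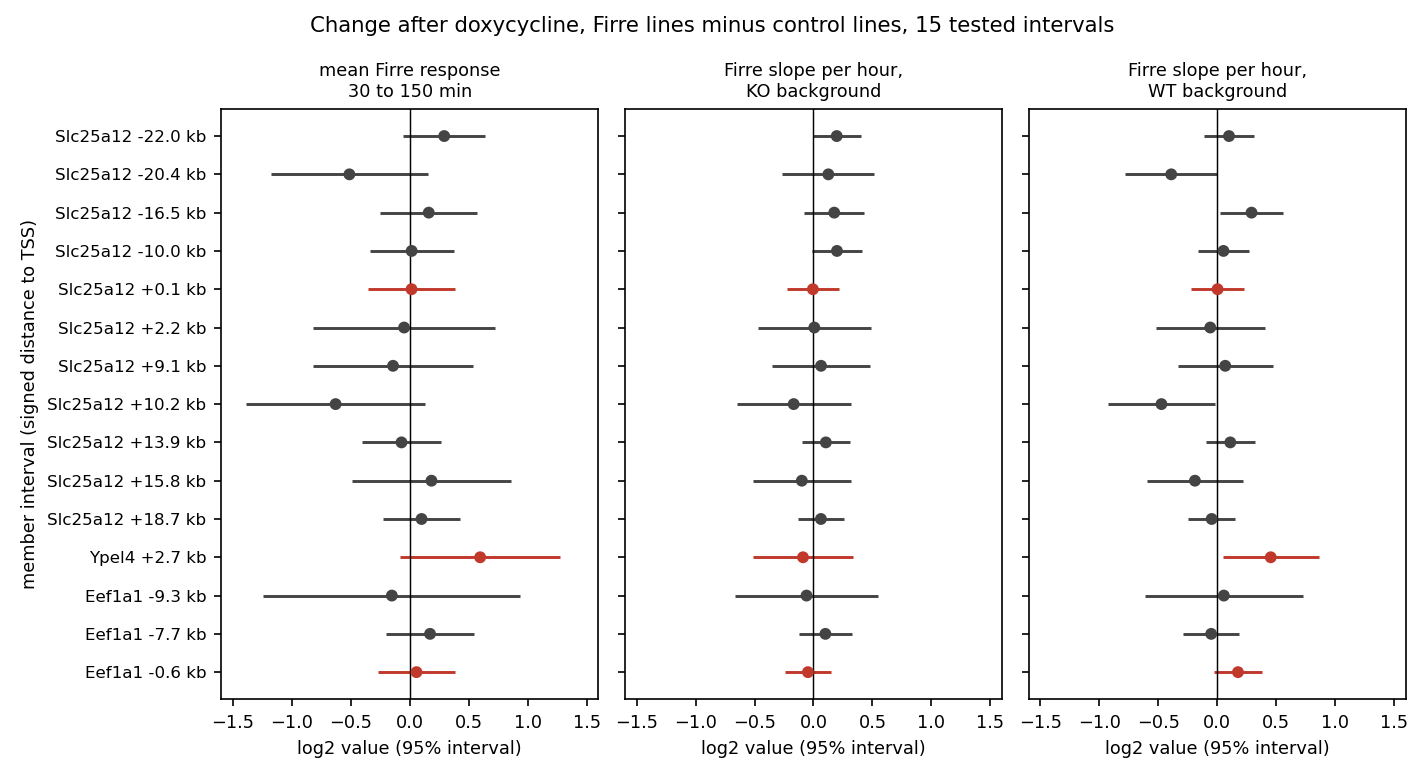
Mean Firre response from 30 to 150 min and Firre slopes per hour in the KO and WT backgrounds (log2, horizontal, with 95% intervals) for the 15 tested members (rows), with the interval nearest to each gene's TSS in red. The mean response has the widest intervals, and none of the 15 excludes 0 in that panel.

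Ppp1r10 was reached in another way. Its RefSeq start lay in the interval chr17:35915775-35919977, which the authors' annotation assigns to the microRNA gene Mir1894, and which is therefore not a member. It was looked up after the annotation had been seen. It held 74.9, 74.3, 85.2, 92.8, 85.2 and 87.7 CPM in the KO Firre line and 75.3, 85.0, 77.5, 84.8, 83.3 and 85.2 CPM in the KO control. In the WT Firre line it held 80.9, 74.4, 76.5, 75.8 and 101 CPM, and in the WT control 67.5, 73.7, 79.5, 74.0, 83.5 and 70.4 CPM. With 19.1 CPM per kb it was denser than 96.4% of all intervals. The ranges overlapped in all 3 pairs, and the log2 differences were 0.03 (SE 0.08) in the KO pair, 0.13 (SE 0.09) in the WT pair and 0.13 (SE 0.08) between the control lines. The mean Firre response was -0.06 (SE 0.16), and the smallest of the edgeR adjusted p over its 9 tests was 0.383.

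In all, 14 intervals lay inside the RefSeq spans of the 5 genes under other names, 10 in Slc25a12, 1 in Ypel4 and 3 in Ppp1r10. The 10 in Slc25a12 were assigned to Gm13641, a gene model within it, and edgeR called 0 of them in each of the 9 comparisons. Unadjusted p was under 0.05 for 3 of them between the control lines, against 22.2% of all tested intervals. In the control response it was under 0.05 for 2, against 5.26%, and in each of the others for 0 or 1. The 1 in Ypel4, chr2:84737471-84738896 in exon 5 of 5, was assigned to the microRNA gene Mir130a and was far denser than the member in exon 2, with 16.9 against 9.92 CPM per kb. It averaged 23.2 ± 1.67 CPM in the KO Firre line and 26.1 ± 1.46 CPM in the KO control, and 24.3 ± 2.45 CPM in the WT Firre line and 22.6 ± 1.63 CPM in the WT control (SD, n = 6, 6, 5 and 6). Its log2 difference was -0.17 (SE 0.08) in the KO pair and 0.20 (SE 0.09) between the control lines, with edgeR adjusted p of 0.41 and 0.13. The other 2 in Ppp1r10 were assigned to Rbx1-ps and lay in exons 17 and 19 of 19. They averaged 2.56 and 1.18 CPM, and edgeR called neither in the 9 comparisons. The one in exon 19, with 4 to 20 counts per library, had a mean Firre response of -1.21 (SE 0.60, unadjusted p 0.0478, edgeR adjusted p 1), and the one in exon 17 had -0.21 (SE 0.40).

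Neighbouring chromatin gave a scale for the members. Within 100 kb of the 3 lead intervals lay 77 intervals assigned to other genes, of which 71 were tested. The 71 include the 10 intervals inside Slc25a12 and the 1 inside Ypel4 that bear other names, so not all lie outside the member genes. In the KO pair, where 0.913% of all tested intervals were called, 1 of the 71 was called, chr2:84806213-84806945 at Ube2l6, a ubiquitin-conjugating enzyme gene, at -0.47 (edgeR adjusted p 0.0146). That call was lost without the KO Firre line library of 0 or 60 min, or the KO control library of 0 or 60 min, and DESeq2 called 0. Between the control lines 8 of the 71 were called, 6 higher and 2 lower in the KO control, where 7.97% of all tested intervals were called. Of these, 7 lay around Ypel4 and 1 near Eef1a1, chr9:78474976-78478161 just past the 3′ end of the gene, at 0.30 (SE 0.08, edgeR adjusted p 0.0136). With promoter share as a covariate, which cannot be told apart from the line here, 0 of the 71 were called between the control lines. DESeq2 called 5 and limma-voom 6 of them there. The count was 5, 5 and 3 without the KO control library of 0, 90 or 120 min, 4 and 5 without the WT control library of 90 or 150 min, and 13 without the KO control library of 150 min.

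The genes that work with the members were counted at their promoter intervals, 1 per gene, for 26 of 33 listed partners with such an interval. For each gene the promoter interval with the highest level was taken. Shares over all promoter intervals, which include weaker ones, are therefore not matched to the partners in level. Between the control lines 10 were called higher in the KO control and 0 lower, where 16.4% of promoter intervals were called higher. The partners' median log2 difference was 0.17 and that of all 22024 tested promoter intervals was 0.09. The count was 6 without the KO control library of 30 min, 6 without that of 90 min, 5 without that of 120 min, 6 without the WT control library of 120 min and 3 without the KO control libraries of 30 and 90 min together. With promoter share as a covariate 0 of the 26 were called, and 3 of all promoter intervals were called higher. The share is made of promoter counts and did not overlap between these lines, so this fit cannot tell line and share apart.

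Of 6 genes of the malate-aspartate shuttle, in which Slc25a12 works, 3 were called higher in the KO control, against 16.4% of all promoter intervals. They were Mdh1, the cytosolic malate dehydrogenase, at 0.59 (edgeR adjusted p 4.35e-06), with 57.7 CPM in the KO control and 38.0 CPM in the WT control, Slc25a11, the oxoglutarate carrier, at 0.44 (adjusted p 0.000128), and Got2, the mitochondrial aspartate aminotransferase, at 0.28 (adjusted p 0.0341). Slc25a13, the other aspartate-glutamate carrier, had -0.21 with an adjusted p of 0.295. Of 2 YPEL family genes measured, Ypel5 was called higher at 0.41 (adjusted p 0.000409), and Ypel1 had -0.04.

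Of 6 translation elongation genes 1 was called higher in the KO control, Eef1g, a subunit of the exchange factor of Eef1a1, at 0.31 (edgeR adjusted p 0.00898). Of 9 genes of the ATF4 branch 3 were called higher. These were the eIF2 alpha kinases Eif2ak3, at 0.39 (adjusted p 0.00134), and Eif2ak1, at 0.29 (adjusted p 0.0278), and Asns, the asparagine synthetase gene and a target of ATF4, at 0.28 (adjusted p 0.0217). Of 3 genes of the PNUTS phosphatase complex 2 were called higher, the catalytic subunits Ppp1cb, at 0.32 (adjusted p 0.00849), and Ppp1cc, at 0.28 (adjusted p 0.0445). These counts by role stand beside 16.4% of all promoter intervals called higher, a share not matched to the partners in level. With promoter share as a covariate, which cannot be told apart from the line here, none of these partners was called.

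In the KO pair 1 of the 26 partners was called, Eef1e1, which encodes a component of the multi-tRNA synthetase complex. It was lower in the KO Firre line, at -0.47 (edgeR adjusted p 0.0325), with 5.68 CPM in the KO Firre line and 7.82 CPM in the KO control, where 0.227% of promoter intervals were called lower. DESeq2 called 0 of the 26 there, and the call was lost without any 1 of the KO Firre line libraries of 0, 30, 90, 120 and 150 min or the KO control libraries of 0, 60, 120 and 150 min. In the 7 other comparisons 0 of the 26 partners were called by edgeR. DESeq2 and limma-voom also called 0 in each. Unadjusted p was under 0.05 for 7 of them in the contrast between backgrounds, against 10.6% of all tested intervals. In the WT pair it was under 0.05 for 5, against 7.55%, and in each of the others for 1 to 4, against 3.77% to 5.75%.

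Across the 23 libraries the promoter intervals most like each lead interval were sought among 11691 promoter intervals of other genes, by the Pearson correlation of log2(CPM + 1). For Eef1a1 they were Zfp91 (Spearman 0.91) and Hnrnpul2 (0.93), with r of 0.95 each, where the median over all candidates was 0.46. For Slc25a12 they were Mknk1, with r of 0.79 (Spearman 0.83), and Cbx7, with 0.77 (0.78), against a median of 0.22. For Ypel4 they were Fam189b, with r of 0.74 (Spearman 0.71), and Gm44700, with 0.69 (0.68), against a median of -0.08. The level of the lead interval correlated with the library's promoter share at r of 0.91 for Eef1a1, 0.39 for Slc25a12 and -0.11 for Ypel4. All intervals of a library share its depth and promoter share, and these values are the highest of many, so they describe likeness in these libraries alone.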

How the data were processed

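The deposited table gives raw counts per consensus interval and library, whole numbers that the authors did not normalize, and the deposited annotation gives positions, TSS distances and gene names. MACS2 2.2.7.1, featureCounts and build mm10 are named per the submitters' processing notes. Which aligner and annotation release were used, and how duplicates and the transposase offset were handled, is not given in the sources used here.

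The test was the edgeR 4.0.16 quasi-likelihood F test with TMM scaling on the 129515 intervals kept by filterByExpr (minimum of 10 counts, lines as groups), with Benjamini-Hochberg adjustment over all of them and a threshold of 0.05. The spread was estimated jointly over 23 libraries. The line fit held line and time (14 residual degrees of freedom), the time fit added transgene by time (9), and the slope fit a slope per hour in each background (11). Standard errors (SE) came from the F statistic, and 95% intervals are unadjusted. CPM values are counts scaled by the TMM library size. The fits were checked on simulated counts. For the mean Firre response 7.46% of built-in 1.5-fold differences were recovered, 47.8% of 2-fold and 92.4% of 4-fold ones. For the KO pair and the WT pair it was 61.2% of 1.5-fold ones each, and 98.5% and 94% of 2-fold ones. Between the control lines it was 68.7% of 1.5-fold and 94% of 2-fold ones. For the slope in the KO background it was 43.3% of changes of 1.5-fold per hour and 83.6% of 2-fold per hour. The changed intervals were drawn from those above a minimum mean count, so these shares do not cover the members with the fewest reads. Alternatives were DESeq2 1.42.0, limma 3.58.1 (voom), other scalings and filters, a promoter share covariate and left-out libraries.

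Values per library are given for each gene's lead interval, the member within 1000 bp of its TSS, or else nearest to it, with the highest mean CPM, and for members on which a result turns. The members, partner and marker lists were chosen with earlier results of these data known. No label describes separate cultures, so the p-values rest on the spread among libraries within lines, pooled over the lines after the terms of each fit. At the median library size a count of 0 leaves room for 0.391 CPM (floor of 3 counts), for counting error only. In bulk libraries fewer open cells and less opening per cell cannot be told apart. RefSeq names and sequences are of assembly GRCm38.p6.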

Additional observations from a re-analysis of the deposited data

How the results depend on the processing

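Of 283 counts of called members under other settings, 273 equalled the count of 0 given in the report and 10 did not. For the KO Firre line against the KO control, loess offsets gave 1 called member. For the KO control against the WT control, DESeq2, limma-voom and loess offsets gave 1 each, and leaving out single libraries gave 0 to 3. For the contrast between backgrounds, loess offsets gave 1. Loess offsets called the large Slc25a12 interval, and the others are named in the report. Of 24 log2 values of lead intervals 16 changed sign in some setting, and of 748 alternatives 33 moved by more than 1 SE. The calls over all intervals were less stable. They ran from 56 (promoter share as a covariate) to 17205 (without the KO control library of 150 min) for the control lines, against 10324, and from 150 (DESeq2) to 2029 (loess offsets) for the KO pair, against 1183. They ran from 46 to 196 for the WT pair, against 106, and from 125 to 1232 for the contrast between backgrounds, against 345. The cause was not tested. The block for shared times is the term for time, and dropping it from the line fits called 0 members in all 4 comparisons of lines. The settings for partner genes and neighbouring intervals were chosen after seeing the data. Depth limits the Ypel4 interval, with 15 to 46 counts per library, and 1 member was too low to test.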
